A study of Mus musculus with 4 samples.

Results

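The genes Meg3, Rian, Mirg, H19, Kcnq1ot1 and Airn were examined in nuclei of mouse hematopoietic stem and progenitor cells (HSPCs). They are long noncoding RNA genes of imprinted domains, and they make up 6 of the 32272 gene rows of the matrix. A further 62 of its 174339 chromatin accessibility (ATAC) peaks lay within 50 kb of their intervals. These intervals are those of the matrix rows, which are shorter than the annotated genes. They are 1 base for H19 and Kcnq1ot1, 5441 for Meg3 and 8017 for Mirg, so parts of the annotated genes can lie outside the windows. The genes were chosen by their RNA levels across lineages and libraries, so those levels are given as a description without a test.

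Imprinted genes are transcribed mainly from either the maternal or the paternal chromosome, according to DNA methylation set in the germ line at a control region of each domain. Meg3, Rian and Mirg are maternally expressed and lie in a row in the Dlk1-Dio3 domain, which carries many microRNAs and small nucleolar RNAs and is known for its activity in long-term hematopoietic stem cells. H19 is the maternally expressed partner of Igf2, and the paternally expressed Kcnq1ot1 and Airn are antisense transcripts that silence neighbouring protein-coding genes in cis.

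The labels describe bone marrow HSPCs of a group called Ctrl and a group called Lig, each with 1 RNA and 1 ATAC sample. Per the study's methods, Lig mice carried a silk ligature that causes periodontitis for 14 days, Ctrl mice carried none, all were male C57BL/6 mice, and lineage-negative, cKit-positive marrow cells of several mice were pooled for each sample before their nuclei were isolated. The matrix pools the samples, and its barcodes end in the suffix 1 or 2 with no label that ties a suffix to Ctrl or Lig. The suffixes are called library 1 and library 2 here, they are in no group, and ligature and control were not compared. Each library stands alone, so every interval covers counting error only, not the spread between mice.

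Nuclei with at least 200 detected genes and 1000 to 50000 ATAC counts in peaks were kept, 5905 in library 1 and 7714 in library 2. They held 10294527 and 12537328 RNA molecules, counted by unique molecular identifiers (UMIs), with medians of 1641 and 1516.5 UMIs a nucleus. A total of 146 barcode sequences occurred under both suffixes, and 72 were kept under both. Leaving out every nucleus with such a barcode sequence gave a ratio of HSC-like over the other nuclei of 95.7 for Meg3, against 96.4 with them, and for Kcnq1ot1 it stayed at 1.57. Genes at the ribosomal locus (Gm42418, Gm26917 and AY036118) took 43.0% of the UMIs in library 1 and 53.2% in library 2. Among the 10614 genes that reached 20 UMIs in both libraries, the median level was lower in library 2 by a log2 ratio of -0.63 in CPM, the counts-per-million scale of UMIs summed over nuclei, and library ratios of the 6 genes are read against that shift.

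Joint clustering of RNA and ATAC, made without the 6 genes, other imprinted genes or the 62 peaks, gave 19 populations after merging those of the same name. Of these, 11 were named from marker genes with "-like" and 8 kept their cluster number. Cluster 3 raised all 7 markers of granulocyte-monocyte progenitors and cluster 11 all 10 of pro-B cells, but the 10 leading genes of each held a marker of another class (Vcam1 and Rag1) and none of those, so neither was named. The HSC-like population held 672 nuclei, 296 in library 1 and 376 in library 2. It was led by Crispld1, Nkx2-3, Mecom, Mamdc2 and Samd12, and the 12 HSC marker genes summed to 1685 CPM there and to 157 CPM in the other nuclei. The same list reached 2458 CPM in HSC-like nuclei of library 1 and 965 CPM in those of library 2, a difference that stands beside each comparison of the libraries within this population. Kit, which encodes the receptor used for sorting, was present in both libraries at 138 and 73.4 CPM over all kept nuclei.

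The sequences below belong to the peaks and promoters whose accessibility is described further on. The annotation used here marks no imprinting control regions, so peaks are placed by distance from the genes only. Coordinates are on GRCm38 (mm10), promoters are from the RefSeq table of that build, and the letters searched on both strands were the 14 bases CCGCGN directly followed by GGNGGCAG and the shorter GGNGGCAG alone for CTCF, TGCCGC for ZFP57, and CG dinucleotides. CTCF is an insulator protein, and ZFP57 protects methylation at imprinted control regions. The first sequence is the central stretch of the peak with the highest HSC-like ratio of all 62, chr12:109749827-109750126 on the plus strand, just past the end of Mirg. Its capitals mark CTGCCGCC, where matches of the shorter CTCF motif and of the ZFP57 motif overlap. Of 174274 central peak windows of 300 bases, 12.98% held the former and 6.17% the latter.
Mirg end peak: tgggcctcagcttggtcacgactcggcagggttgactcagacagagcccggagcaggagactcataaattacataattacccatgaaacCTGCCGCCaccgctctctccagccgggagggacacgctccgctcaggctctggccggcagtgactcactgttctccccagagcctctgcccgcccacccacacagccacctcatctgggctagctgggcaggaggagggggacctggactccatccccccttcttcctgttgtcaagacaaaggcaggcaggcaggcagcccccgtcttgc
The promoter of Kcnq1ot1, chr7:143296498-143296797 on the minus strand, is shown because the strongest peak near that gene covered it, and a promoter of Meg3, chr12:109540746-109541045 on the plus strand, because no peak did. RefSeq lists another Meg3 promoter at chr12:109545148-109545447, which no peak covered either and which holds 1 CG. In the printed promoters capitals mark CG dinucleotides, 9 and 13 of them, against a median of 7 over 32851 RefSeq promoters of 300 bases.
Kcnq1ot1 promoter: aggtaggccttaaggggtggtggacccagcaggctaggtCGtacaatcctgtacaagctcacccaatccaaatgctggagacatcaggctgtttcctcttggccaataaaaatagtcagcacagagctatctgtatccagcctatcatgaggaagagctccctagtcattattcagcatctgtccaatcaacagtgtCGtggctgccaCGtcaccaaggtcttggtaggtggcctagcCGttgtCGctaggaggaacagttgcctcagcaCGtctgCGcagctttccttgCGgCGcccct
Meg3 promoter: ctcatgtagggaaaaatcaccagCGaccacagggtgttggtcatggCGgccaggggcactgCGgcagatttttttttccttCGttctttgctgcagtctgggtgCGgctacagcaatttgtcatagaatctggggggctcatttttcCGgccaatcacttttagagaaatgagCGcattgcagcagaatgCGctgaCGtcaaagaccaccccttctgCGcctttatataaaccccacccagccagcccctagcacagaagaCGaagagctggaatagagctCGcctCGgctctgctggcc
The next stretches come from the peaks with the most ZFP57 matches near Kcnq1ot1 and Airn and hold 3 matches each, in capitals, at chr7:143295659-143295756 and chr17:12742183-12742482 on the plus strand. Of all whole peaks, 12.4% held at least 1 match.
Kcnq1ot1 stretch: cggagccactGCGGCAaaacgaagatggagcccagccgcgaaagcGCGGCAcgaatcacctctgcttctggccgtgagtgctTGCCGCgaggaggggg
Airn stretch: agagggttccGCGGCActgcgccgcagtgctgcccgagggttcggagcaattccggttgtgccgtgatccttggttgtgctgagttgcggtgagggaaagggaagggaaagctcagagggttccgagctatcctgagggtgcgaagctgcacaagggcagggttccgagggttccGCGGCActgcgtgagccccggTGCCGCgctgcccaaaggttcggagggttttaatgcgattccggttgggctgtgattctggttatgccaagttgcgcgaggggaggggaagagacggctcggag
The 14-base CTCF motif, found in 0.0212% of all whole peaks, occurred in 2 of the 62 peaks, both upstream of H19. The 3 matches lay 2173, 2628 and 3898 bases from its start, at chr7:142580301-142580330, chr7:142580756-142580785 and chr7:142582026-142582055, with the match in capitals.
H19 match at 2173: gtattgtaCTGCCACCACGCGGcatcgtct
H19 match at 2628: ggagtatgCTGCCACCGCGCGGtagcatcc
H19 match at 3898: cgattttgCTGCCACCACGCGGcaactccc
A match describes letters in these windows only and is not a measured binding site. Methylation and the parental origin of the RNA were not measured.

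In the Dlk1-Dio3 domain on chromosome 12, Meg3 RNA was rare and was found mostly in HSC-like nuclei. Meg3 is annotated from 109541001 to 109571726 on the plus strand. It had 10 UMIs in library 1 and 12 in library 2, and HSC-like nuclei held 9 of them in each library. The level in HSC-like nuclei was 18.3 CPM (exact Poisson 95% interval 8.39 to 34.8) in library 1 and 17.1 CPM (7.80 to 32.4) in library 2. The libraries thus lay within each other's counting error. The ratio of library 2 over library 1 was 0.930 (0.327 to 2.65), 0.54 log2 units above the shift of that population. That interval is too wide to place Meg3 against the shift. The other nuclei held 1 UMI in library 1 and 3 in library 2, which is 0.102 and 0.250 CPM. Over both libraries the ratio of HSC-like over the other nuclei was 96.4, with an exact 95% interval of 31.8 to 392. The ratio depends on how the population is drawn. With clusters from RNA alone the HSC-like population held 2440 nuclei, its Meg3 level was 4.44 CPM and the ratio was 20.8, below that interval. Without ribosomal-locus genes in the denominator the level was 32.7 CPM.

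The 18 HSC-like UMIs came from 11 nuclei. In library 1, 2 nuclei had 1 UMI, 2 had 2 and 1 had 3, and in library 2, 3 nuclei had 1 UMI and 3 had 2. Most HSC-like nuclei therefore showed none, and 1.64% (Clopper-Pearson 95% interval 0.820 to 2.91%) showed at least 1, against 0.0309% (0.00842 to 0.0791%) of the others. Median depths were 1400 and 1574 UMIs, so the shallower population had the higher share. After each nucleus was thinned to 1000 UMIs, which left out 124 and 2061 shallower nuclei, the shares were 1.28% and 0.0184%. The 4 UMIs outside came 1 each from MkP-like (megakaryocyte progenitor), cluster 3, cluster 6 and cluster 14 nuclei. Barcodes that did not pass the limits held 3 and 2 Meg3 UMIs, 1.15 and 0.922 CPM. Among the 2089 genes with 15 to 30 UMIs in all, 0.144% had more than 50 percent of them in HSC-like nuclei, a figure given beside Meg3 as background only, since this contrast chose the gene.

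Markers of other marrow cells were set beside these nuclei. In the 15 nuclei with a Meg3 UMI, all 9 stromal and all 6 macrophage markers were at 0 UMIs, which allows up to 97.6 CPM for either list. That limit lies above the 29.5 and 0.982 CPM of the lists in all HSC-like nuclei, so these counts of 0 do not show a lower level. The 7 endothelial markers held 6 UMIs, all of Pecam1, at 195 CPM (71.6 to 425), against 90.4 CPM in HSC-like and 104 CPM in the other nuclei. In the 11 HSC-like nuclei with a Meg3 UMI they held 2 UMIs at 98.4 CPM (11.9 to 355). The part of other marrow cells in the Meg3 counts was not tested. The HSC marker list stood at 2017 CPM in the 11 HSC-like nuclei with a Meg3 UMI and at 1678 CPM in the 661 without, with overlapping intervals of 1447 to 2736 and 1598 to 1760. The population was named by these same markers, so the likeness of the 11 nuclei to the rest of it is no separate evidence. Over all 15 nuclei with a Meg3 UMI the list held 42 UMIs at 1366 CPM (984 to 1846), and 41 of the UMIs were in the 11.

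Rian and Mirg, the genes downstream of Meg3 that host small nucleolar RNAs and microRNAs, were near the limit of detection. Rian had 2 UMIs in each library, none of them in HSC-like nuclei, where a count of 0 allows up to 2.95 CPM. The Rian UMIs came 1 each from MPP4-like (lymphoid-primed multipotent progenitor), NeuP-like (neutrophil progenitor), cDCP-like (conventional dendritic cell progenitor) and cluster 9 nuclei. Mirg had 2 UMIs in library 1, both in HSC-like nuclei, and 0 in library 2, which allows up to 0.239 CPM over all its kept nuclei. Of the 2 nuclei with Mirg, 1 also held Meg3. No order between HSC-like and other nuclei can be read from 4 and 2 UMIs. The annotation places 57 microRNA hairpins between the start of Meg3 and the end of Mirg, 54 on the strand of the 3 genes, and mature microRNAs are not captured by this assay.

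H19, the imprinted growth regulator on chromosome 7, had 0 UMIs in the kept nuclei of either library, which allows up to 0.291 CPM in library 1 and 0.239 CPM in library 2. It was at 0 among the barcodes outside the limits too. In HSC-like nuclei alone the count of 0 allows up to 6.11 and 5.69 CPM. Igf2, the fetal growth factor of the same domain, had 0 UMIs in HSC-like and 9 in other nuclei.

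Kcnq1ot1 UMIs were found in all 19 populations of both libraries, with the highest levels in erythroid and stem-like nuclei and the lowest in neutrophil and conventional dendritic progenitors. It is annotated on chromosome 7 from 143203458 to 143296549 on the minus strand, antisense within Kcnq1, a potassium channel gene. The kept nuclei held 1873 UMIs in library 1 and 704 in library 2, which is 182 and 56.2 CPM. Erythroid progenitor-like (EryP-like) nuclei were highest in both libraries, at 376 CPM (328 to 430) and 111 CPM (83.9 to 145). HSC-like nuclei followed at 269 CPM (225 to 319) and 83.4 CPM (60.6 to 112). MkP-like nuclei had 267 and 63.8 CPM in the libraries, and cluster 3 had 241 and 61.7 CPM. NeuP-like nuclei were lowest in both libraries, at 29.3 CPM (10.7 to 63.7) and 11.6 CPM (3.76 to 27.0), from 6 and 5 UMIs. The cDCP-like nuclei had 40.2 and 15.7 CPM, from 5 and 2 UMIs. EryP-like and HSC-like nuclei thus stood highest and cDCP-like and NeuP-like nuclei lowest in both libraries, with a gradient of several fold between them. Barcodes outside the limits on genes and peak counts held Kcnq1ot1 at 145.66 CPM in library 1 and 41.0 CPM in library 2. In library 1 that was above the levels of NeuP-like, cDCP-like, cMoP-like and pro-NK/T-like nuclei and of clusters 1, 14 and 18, and in library 2 above those of NeuP-like and cDCP-like nuclei and of clusters 11 and 18. The 9 neutrophil markers stood at 382 CPM in HSC-like nuclei, against 15844 CPM in NeuP-like nuclei. The outside barcodes failed any 1 of the limits, so nuclei can be among them and their level is no measure of free RNA alone. Levels near or below theirs are given without a verdict, and the part of free RNA in any level was not tested.

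Between these ends the populations are given by library, since the libraries differ in level and make up different shares of each population. Cluster 6 had 209 and 75.5 CPM in libraries 1 and 2, BaP-like (basophil progenitor) nuclei 222 and 79.6, MPP4-like 205 and 55.7, and pro-B-like 171 and 52.9 CPM. The pDCP-like nuclei (plasmacytoid dendritic cell progenitor) had 154 and 47.0 CPM and the cMoP-like (monocyte progenitor) 49.1 and 42.9 CPM. The pDCP-like population merged a cluster of 866 nuclei with 3 raised markers, the least that gives a name, and one of 81 nuclei with 7. For most of its nuclei the name is thus weak. Clusters 0, 9, 1 and 18 had 155, 161, 128 and 80.0 CPM in library 1 and 51.6, 50.7, 47.3 and 39.8 CPM in library 2. Places within this range were not stable. Cluster 11 had 201 CPM in library 1, rank 8, but 26.3 CPM, from 3 UMIs, in library 2, rank 17. Cluster 14 went from rank 14 at 119.9 CPM to rank 5 at 64.6 CPM, from 5 UMIs, and pro-NK/T-like nuclei from rank 15 at 80.5 CPM to rank 8 at 58.8 CPM. EryP-like over HSC-like nuclei had a ratio of 1.40 (1.12 to 1.75) in library 1 and 1.33 (0.881 to 2.03) in library 2. In all other pairs of neighbours in the order of either library the interval of the ratio took in 1. These intervals describe counting error in levels that chose the gene, and they are no test of a difference. Without ribosomal-locus genes in the denominator the HSC-like level was 319 CPM. Between HSC-like and the other nuclei the ratio was 1.57 (1.34 to 1.83), and it was 1.51 in library 1 and 1.52 in library 2. Over all 8703 genes with at least 20 UMIs in HSC-like or 100 in the other nuclei, 6.93% were at least 2-fold higher in HSC-like nuclei and 5.32% at least 2-fold lower. Kcnq1ot1 did not reach 2-fold and Airn did, and since the level in this contrast was among the values that chose the genes, nothing is read from that count of 1. Across the 19 populations Kcnq1ot1 went with a lower share of UMIs at the ribosomal locus (Pearson r = -0.69 over 19 populations that share libraries and depth), and the part of that share in the order was not tested.

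**Figure D1:**
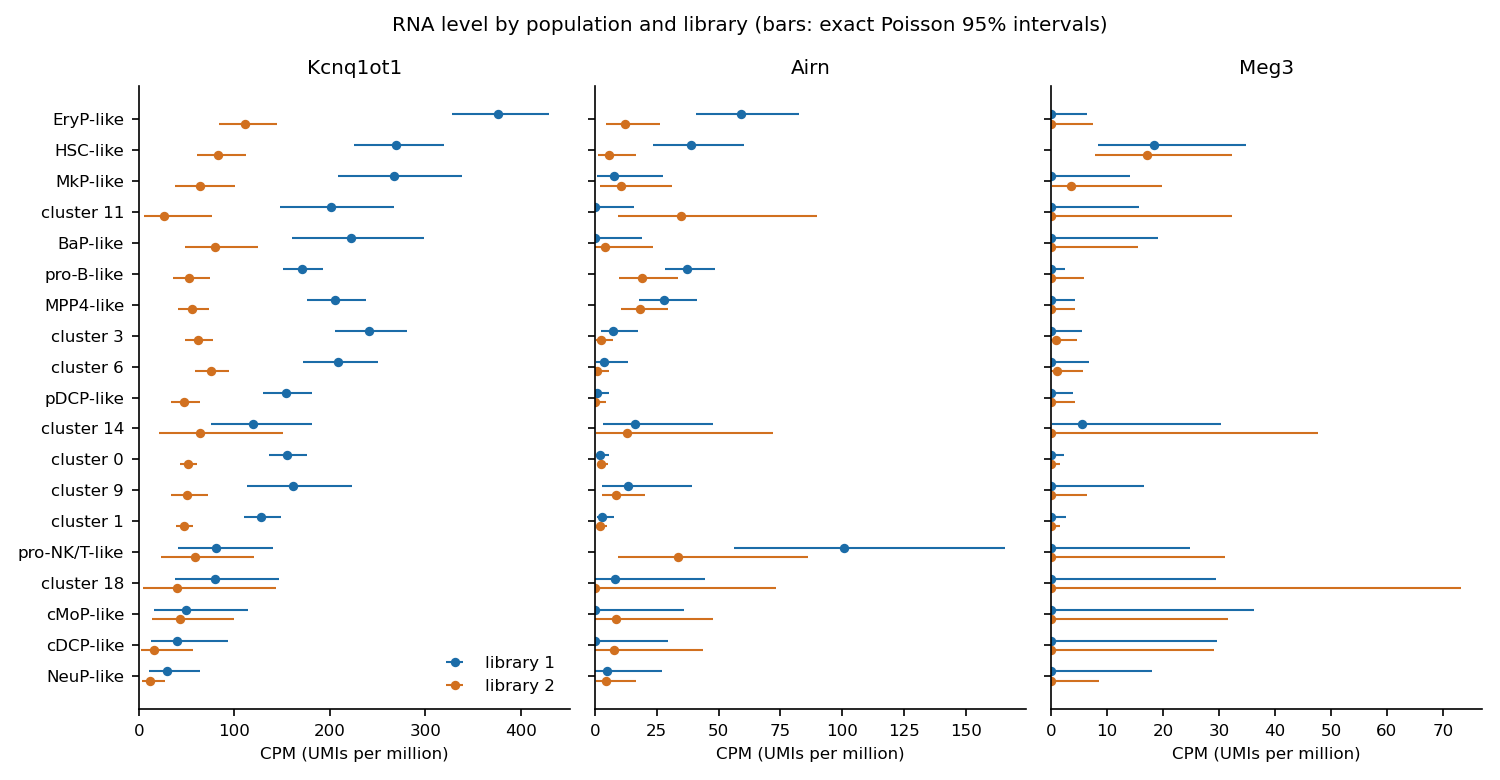
RNA level of Kcnq1ot1, Airn and Meg3 in CPM on the horizontal axes, for each of the 19 populations on the vertical axis, with library 1 in blue and library 2 in orange and bars for exact Poisson 95% intervals. Kcnq1ot1 is highest in EryP-like nuclei of both libraries at 376 and 111 CPM, Airn in library 1 is highest in pro-NK/T-like nuclei at 101 CPM, and Meg3 stands above 15 CPM only in HSC-like nuclei.

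Airn UMIs were few, and pro-NK/T-like and pro-B-like nuclei were among those with its highest levels in each library. It is annotated on chromosome 17 from 12741311 to 12860136 on the plus strand, and it runs antisense across the start of Igf2r, which encodes a receptor that clears insulin-like growth factor 2. The kept nuclei held 173 UMIs in library 1 and 74 in library 2, or 16.8 and 5.90 CPM. Pro-NK/T-like nuclei had 101 CPM (56.3 to 166) in library 1 and 33.6 CPM (9.16 to 86.0) in library 2, from 15 and 4 UMIs. This population was led by the NK and T cell genes Il2rb, Klra8, Klre1 and Trbc1 and by Gm2682. Its name does not show that these nuclei are progenitors rather than mature cells, which was not tested. EryP-like nuclei had 59.2 and 12.1 CPM, and pro-B-like nuclei 37.4 and 19.2 CPM. MPP4-like nuclei had 27.8 and 18.2 CPM, while pDCP-like nuclei had 1 UMI in library 1 and none in library 2. Cluster 11, with its pro-B markers, had 0 UMIs in library 1, which allows up to 12.8 CPM, and 4 UMIs at 35.0 CPM (9.54 to 89.7) in library 2, the highest level there. Pro-NK/T-like and pro-B-like nuclei were thus among the 4 highest in each library and EryP-like nuclei ranked 2 and 6 of 19, while cluster 11 did not keep its place.

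For Airn the HSC-like level rested on library 1, with 19 UMIs at 38.7 CPM (23.3 to 60.5) against 3 UMIs at 5.69 CPM (1.17 to 16.6) in library 2. The ratio of HSC-like over the other nuclei was 2.10 (1.29 to 3.25) over both libraries, 2.47 in library 1 and 0.962 (0.194 to 2.93) in library 2. The direction of this ratio was thus not the same in both libraries. In the order of either library, the interval of the ratio took in 1 for every pair of neighbours with UMIs in both, again as a description of counting error. Without ribosomal-locus genes in the denominator the HSC-like level of Airn was 39.9 CPM. The sources used here do not give the strand setting of the counting, so reads of Airn and of Igf2r, which overlap on opposite strands, may be mixed. The same holds for Kcnq1ot1 and Kcnq1. Igf2r held 100 UMIs and Kcnq1 33 in the kept nuclei. The level of Igf2r went with that of Airn over the 19 populations (Pearson r = 0.75 on log2(CPM + 1)).

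Both detected antisense genes were lower in library 2, beyond the shift of the median gene. For Kcnq1ot1 the ratio of library 2 over library 1 was 0.309 (0.283 to 0.337), a log2 ratio of -1.70, which is -1.07 relative to the shift. Of the 11129 genes past the UMI minimum, 19.7% were at least 2-fold lower in library 2 and 0.18% at least 2-fold higher, and both genes were among the former. At or below the ratio of Kcnq1ot1 were 1.67% of the genes, and at or below that of Airn, 0.351 (0.264 to 0.464), were 3.05%. The library levels were among the values that chose the genes, so these places in the distribution are a description.

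The library ratio of Kcnq1ot1 was below 1 in all 19 populations, and its interval lay below 1 in 13. The median gene was lower in library 2 in each population as well. In cMoP-like nuclei, with 5 UMIs in each library, the ratio was 0.874 (0.201 to 3.80), 0.10 log2 units above that population's shift. In the 14 populations with at least 20 UMIs the ratio ran from 0.131 in cluster 11 to 0.539 in cluster 14, and in all 14 it was below that population's own shift. HSC-like nuclei had 0.310 (0.215 to 0.439) and EryP-like nuclei 0.296 (0.216 to 0.3997), close to the value over all nuclei, and with median-of-ratios scaling the HSC-like ratio was 0.467. For Airn, 13 populations had UMIs in both libraries and 11 were lower in library 2, where the median gene was lower too. The interval of the Airn ratio lay below 1 in 3 of them. Only 4 populations had at least 20 Airn UMIs, and in 3 of these the ratio was below that population's own shift. HSC-like nuclei had 0.147 (0.0278 to 0.499) and EryP-like nuclei 0.205 (0.0704 to 0.494), whereas MPP4-like nuclei had 0.654 (0.325 to 1.28), which is 0.05 log2 units above the shift of that population.

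Gene length moved with the library ratio. Median log2 ratios were -0.37 for genes spanning up to 10 kb, -0.55 for 10 to 30 kb, -0.78 for 30 to 100 kb and -0.95 above 100 kb. Kcnq1ot1 spans 93092 bases and Airn 118826. Among 1323 genes with 0.5 to 2 times the UMIs of Kcnq1ot1, the median was -0.79 and 0.983% had a ratio at or below that of Kcnq1ot1. Both genes lay below the median of their length class, and the part of gene length, of the ribosomal-locus share and of RNA quality in the difference was not tested. Whether it follows treatment or library preparation cannot be told apart. The suffixes carry no label, and with 1 sample per group a label would not separate treatment from preparation either.

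**Figure D2:**
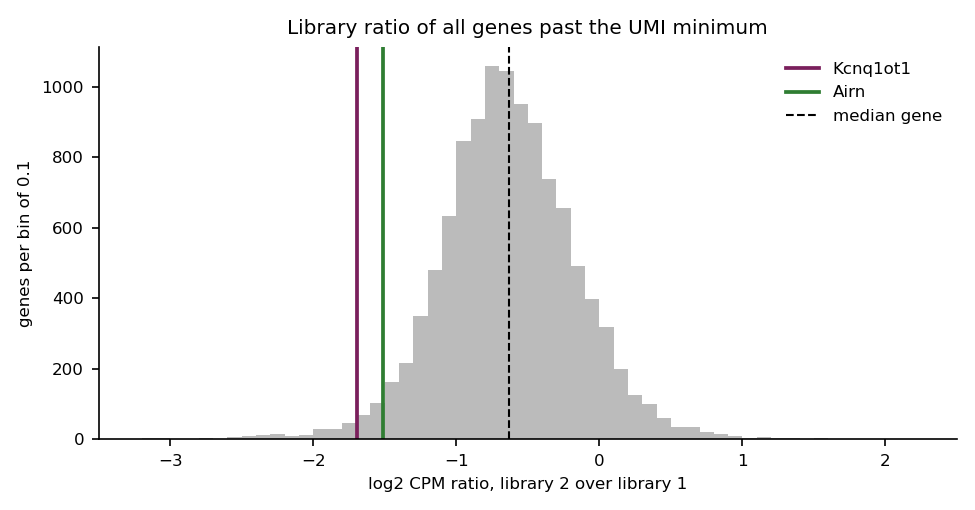
Distribution of the log2 CPM ratio of library 2 over library 1 on the horizontal axis for genes past the UMI minimum, with the number of genes per bin of 0.1 on the vertical axis, solid lines at Kcnq1ot1 and Airn and a dashed line at the shift of -0.63. Most genes lie below 0, and Kcnq1ot1 at -1.70 and Airn at -1.51 lie in the lower tail.

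Nuclei with both antisense RNAs were counted as well. In library 1, Kcnq1ot1 was seen in 32.03% (24.7 to 40.0%) of 153 nuclei with Airn and in 22.4% (21.3 to 23.5%) of 5752 without. Nuclei with Airn were deeper, at a median of 1844 against 1638 UMIs, and after thinning to 1000 UMIs the shares were 13.4% (6.89 to 22.7%) and 14.9% (13.9 to 16.0%). In library 2 the shares were 7.25% and 8.38% before thinning and 4.76% and 5.30% after it. Thinning left 82 nuclei with Airn in library 1 and 42 in library 2. Over all kept nuclei at equal total UMIs, no excess of nuclei with both RNAs was detectable. Populations and the ribosomal-locus share were not matched. Across the 19 populations the levels of the pair had a Pearson r of 0.28 on log2(CPM + 1).

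The genes whose levels over the 19 populations were most like Kcnq1ot1 were Zmym4 (r = 0.93), Rreb1 (0.92), Ahcyl1 (0.92), Ttc27 (0.91) and Eif2ak4 (0.91). For Airn they were Isoc1 (0.84), Psip1 (0.80), Csk (0.78), Mllt3 (0.77) and Crem (0.77). These are Pearson correlations of log2(CPM + 1) with the libraries summed. They are the highest of all genes with at least 200 UMIs, and the populations share libraries, depth and lineage.

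Accessibility near the genes was read from the same nuclei. Of the 62 peaks, 60 had at least 100 counts, and in HSC-like nuclei 6 of these were at least 2-fold higher and 8 at least 2-fold lower than in the other nuclei. Over all 173059 peaks past that minimum, 6.19% were higher and 23.3% lower by this rule. The 6 of 60 stood above the first share and the 8 of 60 below the second, and nothing particular to these genes is read from so few peaks. In each library alone the 2-fold limit was passed by 1 of the 6 and 3 of the 8. None of the 60 changed 2-fold between the libraries, where 0.825% of all peaks were lower and 0.334% higher in library 2. With shares that low, a count of none is near the background and says nothing particular to these genes. Ratios of library 2 over library 1 ran from 0.870 to 1.15 in the 5 peaks near Kcnq1ot1. For the 26 near Airn they ran from 0.705 to 1.35.

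The peak with the highest HSC-like ratio lay at chr12:109749533-109750419, just past the annotated end of Mirg at 109749460, and its central sequence is printed above. Values are ATAC CPM, a peak's counts scaled to the sum of all peak counts of the same nuclei. HSC-like nuclei had 13.1 in library 1 and 7.64 in library 2, and the other nuclei 1.61 and 1.41, so HSC-like nuclei were higher in both. The summed ratio was 6.94 with an interval of 4.98 to 9.38, computed on pairs of counts, and with clusters from RNA alone it was 4.06. MkP-like nuclei had 4.11 and MPP4-like 3.81, whereas cluster 3 had 0.478, NeuP-like 0.68 and cMoP-like 0 counts. The peak was thus highest in HSC-like nuclei of both libraries, and it had 465 counts in all from 236 nuclei. It is the only peak within 50 kb of the Mirg row of the matrix, which ends at 109737780, and no peak lay within 10 kb of that row. The ratio is what singled this peak out, so it stands as a description.

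In the rest of the domain, no peak covered the start of Meg3, and the nearest was centred 2048 bases downstream. It had 3.93 ATAC CPM in HSC-like and 3.93 in EryP-like nuclei, against 7.03 in cluster 3 and 9.06 in NeuP-like nuclei. A peak in an intron of Rian at chr12:109612464-109613325 had a ratio of 2.67, from 1.88 and 5.09 ATAC CPM in HSC-like nuclei of libraries 1 and 2 against 1.18 and 1.40, and passed 2-fold in library 2 only. Upstream of Meg3, the peak at chr12:109494504-109495365 had 2.38, from 1.57 in library 1 and 3.28 in library 2, so that it passed 2-fold in library 2 only. The peak at chr12:109529939-109530786 was lower in HSC-like nuclei at 0.406, from 0.526 and 0.315. This peak was highest in BaP-like nuclei, at 19.5 ATAC CPM, followed by clusters 0 and 3, each at 13.8. Peaks that were more open and peaks that were less open in HSC-like nuclei thus stood within the same domain, and these were named after their values were seen. Summed over the 17 peaks near Meg3, HSC-like nuclei had 52.2 and the others 62.1 ATAC CPM.

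**Figure D3:**
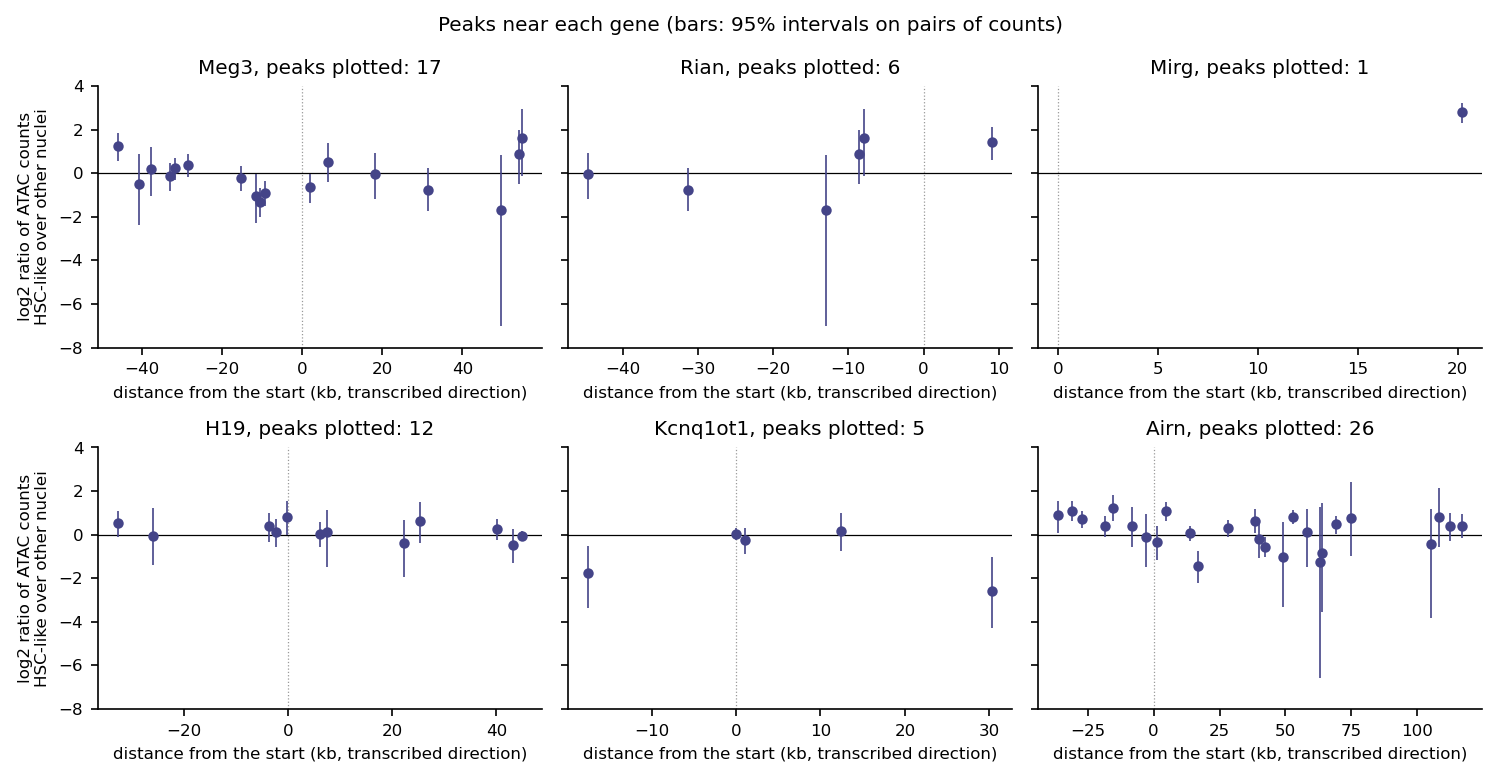
Log2 ratio of ATAC counts in HSC-like over the other nuclei on the vertical axes, against distance from each gene's start in kb in the transcribed direction on the horizontal axes, 1 point a peak with bars for 95% intervals on pairs of counts. The single peak near Mirg stands highest of all, and peaks near Kcnq1ot1 and Airn lie on both sides of 0 with the Kcnq1ot1 start peak at 0.

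At the Kcnq1ot1 start, the peak chr7:143296169-143297033 covered the promoter printed above and was the strongest of the 5 within 50 kb of that start. Peaks further along the annotated gene were not read. This start peak had 21.9 ATAC CPM in HSC-like and 21.3 in the other nuclei, a ratio of 1.03 (0.845 to 1.24). Over the 19 populations it ran from 14.5 in cluster 9 to 40.6 in cluster 14, and NeuP-like nuclei, with the least RNA, had 25.8. With the libraries summed the RNA ran from 17.3 to 254 CPM over the same populations, and RNA and peak had a Pearson r of 0.09 over 19 populations. Between the libraries the peak stood at 22.8 and 19.9, a ratio of 0.87 (0.81 to 0.94). The range of the start peak over the populations was narrower than that of the RNA. This is a description, as the RNA levels were among the values that chose the gene. The lowest RNA level rests on 11 UMIs, and the libraries differ in level and in their share of each population.

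**Figure D4:**
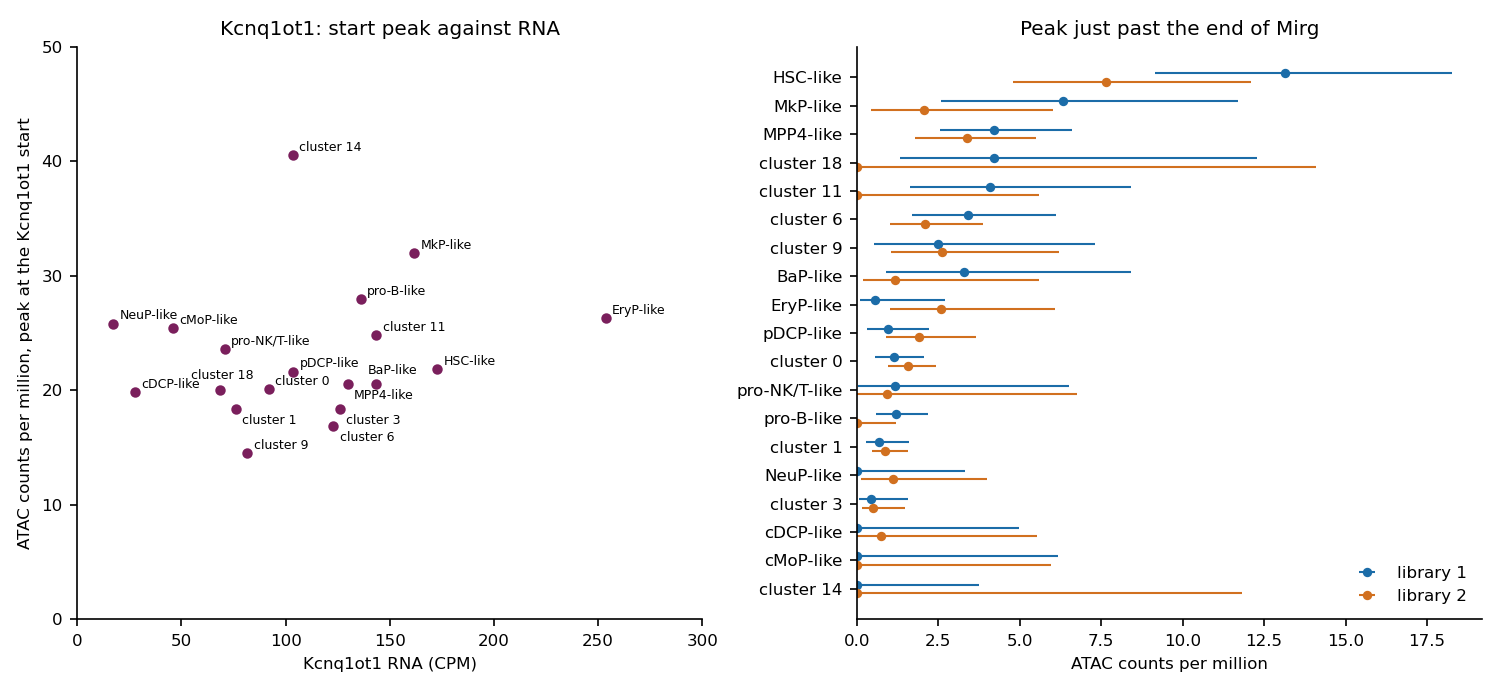
Left, ATAC CPM of the peak at the Kcnq1ot1 start against Kcnq1ot1 RNA in CPM, 1 point a population. Right, ATAC CPM of the peak just past the end of Mirg by population, with library 1 in blue, library 2 in orange and bars for 95% intervals on pairs of counts, where HSC-like nuclei have 13.1 and 7.64 and stand highest.

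The neighbouring peak chr7:143295193-143295821, inside the transcript, holds the ZFP57 stretch printed above and had 7.63 CG per 100 bases, against a median of 1.12 over all peaks. Its level was 4.79 ATAC CPM in HSC-like nuclei and ran between 4.28 and 7.35 over the 19 populations. The peak at chr7:143265788-143266697 had 0.67 ATAC CPM in HSC-like nuclei, with a ratio of HSC-like over the others of 0.168. It was highest in pDCP-like nuclei, at 7.54, and was also low where the RNA was low, at 0 in pro-NK/T-like, 1.88 in NeuP-like and 2.13 in cDCP-like nuclei. Its Pearson r with the RNA was -0.20 over 19 populations. The peak at chr7:143313637-143314554 had 0.96 in HSC-like, 6.67 in NeuP-like, 9.03 in cMoP-like and 0.35 in cDCP-like nuclei, at a ratio of 0.300 and a Pearson r of -0.44. Both ratios held in each library, at 0.15 and 0.19 for the first and 0.25 and 0.35 for the second.

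Near Airn, 26 peaks lay within 50 kb of its row, and 25 had at least 100 counts. Of these, 3 were at least 2-fold higher and 3 at least 2-fold lower in HSC-like nuclei, beside 6.19% and 23.3% of all peaks. Nothing particular to Airn is read from so few. No peak covered the Airn start itself, whose promoter has 3 CG dinucleotides. The peak chr17:12742169-12742886, which holds the printed stretch and 4 ZFP57 matches in all, had 8.57 ATAC CPM in pro-NK/T-like nuclei, 7.15 in cluster 11 and 5.04 in pro-B-like nuclei. HSC-like nuclei had 2.88. The pDCP-like nuclei, with the least Airn RNA when the libraries are summed (1 UMI), had 2.60. NeuP-like, BaP-like, MkP-like and cMoP-like nuclei had lower values still, from 2.39 down to 0.82. Its Pearson r with Airn RNA was 0.38 over 19 populations. The peak at the start of Igf2r, chr17:12769224-12770078, had 23.9 in pro-NK/T-like, 25.1 in NeuP-like and 11.2 in HSC-like nuclei. These are values of single peaks over populations that share 2 libraries.

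An intronic peak of Igf2r and Airn at chr17:12745610-12746461 was higher in HSC-like nuclei, at 9.57 and 9.80 in libraries 1 and 2 against 5.12 and 4.10 in the others, a ratio of 2.11 over both and of 1.87 and 2.39 in each. Its highest level was 12.2, in EryP-like nuclei. The peaks at chr17:12709911-12710783 and chr17:12725367-12726079, upstream of Airn, had summed ratios of 2.13 and 2.32. The former had 1.796 in library 1 and 2.44 in library 2, and 18.6 ATAC CPM in MkP-like nuclei. The latter had 3.07 and 1.64, so each of the 3 passed 2-fold in 1 library only. The peak at chr17:12757680-12758580 was lower in HSC-like nuclei, at 0.371 over both and 0.404 and 0.352 in each library, and reached 20.9 in cMoP-like nuclei. Summed over the 26 peaks, HSC-like nuclei had 139 and the others 111 ATAC CPM.

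H19 had peaks over and upstream of its start while its RNA stood at 0 UMIs. The peak over its start, chr7:142577926-142578802, had 3.19 and 2.94 ATAC CPM in HSC-like nuclei of libraries 1 and 2 and 1.76 and 1.72 in the others, a ratio of 1.76 (0.988 to 2.93) whose interval reached 1. The upstream peaks with the CTCF matches, chr7:142580100-142580941 and chr7:142581526-142582342, had 4.70 and 4.31 in HSC-like nuclei. Over the 19 populations the first ran from 1.06 in cDCP-like nuclei to 9.27 in cluster 14. Over all kept nuclei the start peak had 1.798 ATAC CPM and the upstream peaks 4.28 and 3.33, against a median of 2.35 over all 174339 peaks. None of the 12 peaks near H19 reached 2-fold in either direction, beside 6.19% of all peaks higher and 23.3% lower, and nothing is read from so few.

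Neighbours of the 6 genes and other imprinted genes were read from lists. In the Dlk1-Dio3 domain 1 of 6 neighbours had enough UMIs, Wdr25, at 7.86 CPM in HSC-like and 5.18 in other nuclei, and the paternally expressed Dlk1 had 1 UMI in HSC-like and 2 in other nuclei. Around H19, 2 of 6 passed and neither reached 2-fold, with Lsp1, a leukocyte actin-binding protein, at 50.1 and 26.2 CPM and the mitochondrial ribosomal protein gene Mrpl23 at 22.6 and 19.99 CPM (ratios of 1.91 and 1.13). Around Kcnq1ot1, 4 of 12 passed, and Cd81, a tetraspanin of hematopoietic cells, was 2.31-fold higher in HSC-like nuclei (1.60 to 3.25), at ratios of 2.17 and 2.44 in libraries 1 and 2. Nap1l4, a histone chaperone and the most abundant of the list, had a ratio of 1.28, Tssc4 1.91 and Tspan32 1.46. Cdkn1c, the cell cycle inhibitor of this domain, had 3 UMIs in HSC-like and 4 in other nuclei, did not pass, and was named after its values were seen.

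Next to Airn, 1 of 6 neighbours passed. Slc22a3, an organic cation transporter that Airn silences in the placenta, stood at 173 and 58.8 CPM in HSC-like nuclei of libraries 1 and 2, and its summed ratio over the other nuclei was 3.54 (2.88 to 4.31). With the libraries summed it was higher still in EryP-like nuclei at 264 CPM and in BaP-like nuclei at 220 CPM. Pro-NK/T-like nuclei, the highest in Airn when the libraries are summed, had 29.8 CPM of Slc22a3. Over the 19 populations the levels of the pair had a Pearson r of 0.22 on log2(CPM + 1). Slc22a3 was lower in library 2 by a log2 ratio of -1.44, beside the shift of -0.63 of the median gene. Of all genes past the UMI minimum, 19.7% were at least 2-fold lower there, so nothing is read from the direction it shares with Airn.

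Of 29 other imprinted genes 28 were in the matrix, 7 passed, and 3 were at least 2-fold higher and 0 lower in HSC-like nuclei. Ppp1r9a, which encodes an actin-binding scaffold, was 4.25-fold higher (3.43 to 5.22), at 112 and 102 CPM in libraries 1 and 2, with ratios of 3.61 and 5.00. Impact, a regulator of translation under stress, was 2.27-fold higher (1.71 to 2.95), at 108 and 15.2 CPM, and rested on library 1 with ratios of 3.09 and 0.779. Grb10, an adaptor that restrains growth factor signals, was 2.84-fold higher from 15 UMIs and was named after its values were seen. Gnas, a G protein subunit and the most abundant of the list, had 214 CPM in HSC-like and 166 in other nuclei, and the ratios of Trappc9 and Copg2 were 1.90 and 1.57. The median log2 ratio of the 7 genes was 0.93, and that of all 8703 genes was 0.17. Over all these genes, 6.93% were at least 2-fold higher and 5.32% at least 2-fold lower. The list was chosen with earlier results of these data known. Neither the 3 of 7 nor the median is therefore evidence about imprinted genes.

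Among 21 genes that set, read or keep imprints, 17 passed, and 2 were at least 2-fold higher in HSC-like nuclei. Unlike the imprinted genes, these were not left out of the clustering and could help draw the HSC-like population. Their ratios are therefore a description. Tet1, which oxidises methylated cytosine, was 3.22-fold higher (2.30 to 4.42), at 40.8 and 47.4 CPM in the libraries against 18.1 and 10.2 CPM in the other nuclei. Dnmt3b, a de novo methyltransferase, was 2.15-fold higher (1.57 to 2.89), at 73.4 and 24.7 CPM against 25.7 and 19.7 CPM. Its ratios were 2.85 (1.95 to 4.06) in library 1 and 1.25 (0.658 to 2.19) in library 2, so its place past 2-fold rested on library 1. Dnmt3a, the other de novo methyltransferase, had a ratio of 1.68 and the zinc finger gene Zfp445 1.54. The most abundant of the list were Jarid2, a Polycomb cofactor, at a ratio of 0.895, Smchd1 at 0.917, and the Polycomb genes Suz12 and Ezh2 at 1.01 and 0.802. Uhrf1 and Dnmt1, which keep methylation through replication and were named after their values were seen, had ratios of 0.619 (0.461 to 0.816), the lowest of the 17, and 0.922 (0.759 to 1.11). Zfp57, named for the motif search, had 1 UMI in HSC-like and 3 in other nuclei. The median log2 ratio of the 17 genes was 0.17, the same as over all genes. The 3 of 7 and 2 of 17 stand beside the background of 6.93%. Both lists were chosen with earlier results of these data known, so these counts are a description.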

How the data were processed

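Nuclei of Lin-cKit+ bone marrow cells were profiled by 10x single-cell multiome sequencing, and the authors deposited raw counts, UMIs for genes and counts for ATAC peaks, not normalized, from Cell Ranger ARC 2.0.0 and the GRCm38 (mm10) genome. The submitters' notes also name Seurat 4.0.3 and Signac 1.3.0. The strand setting of the counting was not given in the sources used here. The 4 samples are 1 per group, and no label ties a barcode suffix to a sample, so libraries were described separately and no p-value was computed. The 6 genes and the lists were chosen with earlier results of these data known.

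Nuclei with at least 200 genes and 1000 to 50000 peak counts were kept. RNA (30 principal components) and ATAC (components from 2 to 30 of latent semantic indexing) were corrected between libraries with anchors, joined by weighted nearest neighbours and clustered at resolution 0.8 (Seurat 5.3.0, R 4.3.3, irlba 2.3.5.1). The correction can remove true differences as well. A cluster was named when at least 3 markers were raised by a log2 ratio of 1 with at least 10 UMIs and its 10 leading genes held no more markers of another class than of its own, a rule completed after marker tables were viewed. Scrublet (scanpy 1.11.5) called 0 doublets and so had not worked. Leaving out the highest 8% of its scores, 475 and 591 nuclei, was therefore one alternative.

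Levels are UMIs summed over nuclei on the counts-per-million scale (CPM) with exact Poisson 95% intervals, shares have Clopper-Pearson intervals, and ratios have exact conditional binomial intervals (Python 3.11.15, scipy 1.17.1). ATAC intervals used pairs of counts, as 82.5% of nonzero peak entries were even. Intervals cover counting error only, and UMI or fragment counts of the same nucleus share their source. A count of 0 is given with the level that 3 counts would have. The interval functions were tested on simulated data. Ratios across all genes needed at least 20 UMIs in HSC-like or library 1 nuclei, or 100 in the others, and peaks at least 100 counts. Named neighbours were the up to 4 of each list with the highest HSC-like CPM and the up to 4 with the highest HSC-like ratio from at least 20 UMIs, and exceptions are marked in the text. Alternatives covered the filters, clustering, scaling and window size.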

Additional observations from a re-analysis of the deposited data

Results flagged for a closer look

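Barcodes that did not pass the limits on genes and peak counts, 2857 in library 1 and 2485 in library 2, were part of no population and no ratio. They held RNA of both antisense genes above the level that a count of 0 allows. Kcnq1ot1 stood there at 145.66 CPM in library 1 and at 41.0 CPM in library 2, and Airn at 14.1 and 5.07 CPM. Median depths of these barcodes were 436 and 649 UMIs. All of these levels were below those of the kept nuclei of the same library.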

How the results depend on the processing

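Of 159 values under an alternative, 129 moved by less than their counting interval, 29 moved by more and 1 turned its direction. The 1 was Airn in HSC-like over the other nuclei in library 2 alone, at 0.962, where the main value was 2.10. An HSC-like population was found in every alternative clustering that was run, with 495 to 2440 nuclei. With clusters from RNA alone it held 2440 nuclei, and HSC-like Meg3 stood at 4.44 CPM with a ratio of 20.8, Kcnq1ot1 at 144 CPM, and the Mirg window ratio at 4.06. A minimum of 500 genes, which left 6157 nuclei, gave ratios of HSC-like over the other nuclei of 1.19 for Kcnq1ot1 RNA and 1.35 for the Airn window, and a library ratio of 0.346 for Kcnq1ot1. Without ribosomal-locus genes in the denominator HSC-like levels were 32.7 CPM for Meg3, 319 for Kcnq1ot1 and 39.9 for Airn, and the library ratio of Kcnq1ot1 was 0.375. Median-of-ratios scaling gave Kcnq1ot1 139 CPM in HSC-like nuclei, a ratio of 1.25 over the others and library ratios of 0.420 over all and 0.467 over HSC-like nuclei, and gave Airn a library ratio of 0.478. With limits on halved peak counts the Meg3 window ratio was 0.949. A 10 kb window gave 0.988 for Kcnq1ot1, 1.12 for Airn and 0.658 for Meg3. Library 1 alone gave HSC-like levels of 269 CPM for Kcnq1ot1 and 38.7 CPM for Airn and an Airn window ratio of 1.41, and library 2 alone, both added after the data were seen, gave 83.4 and 5.69 CPM and 1.11. Thinned to 1000 UMIs, 13.4% of library 1 nuclei with Airn had Kcnq1ot1. With no minimum beyond 1 UMI, 24 genes of the lists were at least 2-fold higher and 19 lower in HSC-like nuclei. With the minimum the counts were 7 and 0, beside shares of 6.93% and 5.32% over all genes. No share over all genes was computed without the minimum. Some list genes, such as Rtl1 and B830012L14Rik, had 1 or 2 UMIs in all, so nothing is read from the 24 and 19. The causes of these moves were not tested.

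No paired analysis was possible because each group has 1 sample and the barcode suffixes carry no group. Rian, Mirg and H19 had 0 to 4 UMIs, and no order between populations was detectable for them at this depth, and the mice were pooled, so their spread was not measured.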
